A study of Danio rerio with 4 samples.

Results

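These are the genes whose RNA went up in embryos of ybx1 mutant mothers between 0 and 6 hours post fertilisation (hpf) and ended above the wild-type level. They were chosen by 3 criteria on the FPKM values that the authors deposited. FPKM gives a level relative to the length of the gene and to the size of the library. The mean FPKM over both mutant libraries had to be at least 1, log2(FPKM + 1) had to be at least 2 higher at 6 than at 0 hpf in the mutant, and it had to be at least 1 higher in the mutant than in wild type at 6 hpf. The criteria found 203 genes among 31870 gene identifiers, or 1.37% of the 14790 that passed the first of them, which are called counted genes below. The criterion on the rise alone was passed by 565 counted genes (3.82%). Because measured values chose these genes, their rise in the mutant and their excess over wild type at 6 hpf are described here and are not findings.

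The series consists of 4 zebrafish libraries of total RNA depleted of ribosomal RNA, 1 library per group: maternal ybx1 mutant (Mybx1) embryos at 6 and at 0 hpf, and wild-type (WT) embryos at 6 and at 0 hpf. The labels give no allele, strain, clutch or number of embryos, and all groups are whole embryos with no treatment named. The 0 hpf libraries are called eggs below. The labels give no replicates, so no difference below has a replicate check or a test, and each one compares a pair of libraries. In RNA of whole embryos, fewer cells of a type and less RNA per cell cannot be told apart. Below, "rose", "fell", "higher" and "lower" are used of a gene only for a difference of at least 1 on the log2(FPKM + 1) scale.

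At fertilisation a zebrafish embryo holds RNA laid down by the mother, and its own genome is nearly silent. Activation of the zygotic genome and clearance of maternal RNA follow, so that an embryo at the start of gastrulation runs largely on transcripts of its own. The Y-box protein Ybx1, which carries a cold-shock domain, coats mRNA in the egg and keeps part of it from being translated. Among pathways that an embryo can switch on early is the p53 pathway, which responds to DNA damage and other stress by raising genes for cell cycle arrest, for cell death and for its own feedback inhibitor Mdm2.

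Library totals, recovered from the steps between low FPKM values, were 6042830 reads for Mybx1 at 6 hpf, 7303656 for Mybx1 at 0 hpf, 6240685 for WT at 6 hpf and 7570070 for WT at 0 hpf. The mutated gene ybx1 was at 54.2 FPKM at 6 hpf and 11.9 at 0 hpf in Mybx1, against 2287 at 6 hpf and 338 at 0 hpf in WT. The median difference between Mybx1 and WT at 6 hpf over all 14790 counted genes was 0.76 on the log2(FPKM + 1) scale, and 42.9% of them met the third criterion. After median-ratio scaling of the libraries this median was 0.19, with 4148 genes higher and 3403 lower, against 6341 higher and 1967 lower on the FPKM scale, and 143 of the 203 genes still met all criteria. Folds between the genotypes below are on the FPKM scale. Their 95% intervals cover counting error only and not this choice of scaling, with which the folds at 6 hpf are smaller. Summed markers of the enveloping layer, the outer epithelium, were at 557 FPKM in Mybx1 and 6305 FPKM in WT at 6 hpf, those of germ plasm at 683 and 87.3 FPKM in the same order, and those of the yolk syncytial layer at 123 and 311 FPKM. In the Mybx1 and WT eggs these sums were 718 and 724 FPKM for the enveloping layer, 1693 and 1710 for germ plasm, and 2.28 and 0.66 for the yolk syncytial layer. Blood markers (4 of 7 found) summed to 1.49 FPKM in Mybx1 and 58.8 FPKM in WT at 6 hpf, and ovarian follicle markers (4 of 7 found) to 0.485 and 0.351 FPKM. The part of cell makeup in the results was not tested.

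Most of the 203 genes were at low levels in eggs of both genotypes, and they spanned a wide range of levels in the mutant at 6 hpf. Their median level was 11.5 FPKM in Mybx1 at 6 hpf (lowest 3.03, highest 776) and 0.36 at 0 hpf, against 2.31 at 6 hpf and 0.082 at 0 hpf in WT. In Mybx1 at 6 hpf 115 of them reached 10 FPKM and 26 reached 100, against 29 and 4 in WT at 6 hpf. Of the 14790 counted genes 8035 reached 10 FPKM and 1154 reached 100 in Mybx1 at 6 hpf, against 6157 and 1074 in WT. The median of the counted genes in Mybx1 at 6 hpf was 12.1 FPKM, close to that of the 203 genes. Together they made up 1.61% of all FPKM of the Mybx1 library at 6 hpf and 0.0998% of that at 0 hpf, against 0.263% of the WT library at 6 hpf and 0.0392% of that at 0 hpf. Of the 4 libraries, Mybx1 at 6 hpf thus gave these genes the largest share of its FPKM and the WT egg the smallest. The criteria fix that each gene is higher in Mybx1 at 6 hpf than in Mybx1 at 0 hpf and WT at 6 hpf, and they set no limit on the WT egg. Yet the genes were chosen to rise from a lower level in the Mybx1 egg. The eggs differed by a median of only 0.10 on the log2(FPKM + 1) scale over all counted genes. The small share in the WT egg thus follows in part from the choice.

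**Figure D1:**
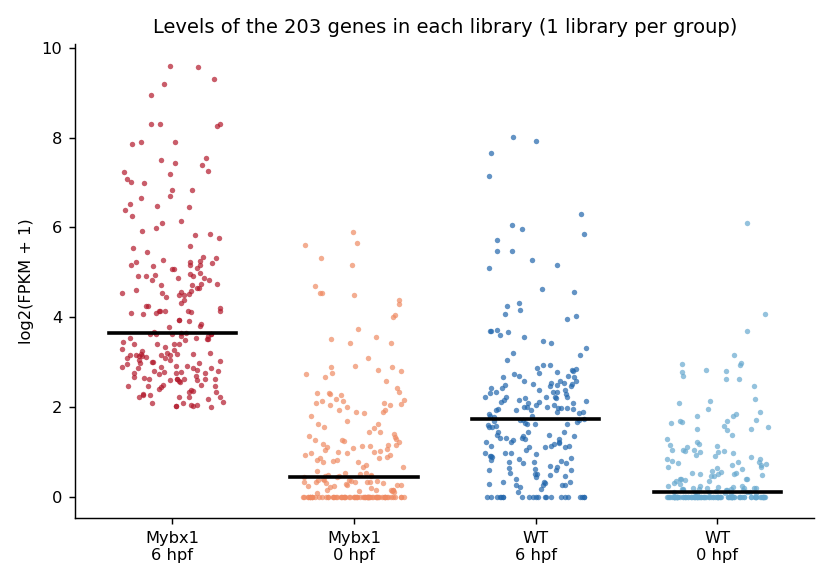
Level of each of the 203 genes on the log2(FPKM + 1) scale (vertical axis) in the 4 libraries, with 1 point per gene and a black bar at the median. The lowest gene in Mybx1 at 6 hpf is at 3.03 FPKM, a limit set by the criteria, whereas 70 genes in Mybx1 at 0 hpf, 22 in WT at 6 hpf and 93 in WT at 0 hpf had no read.

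The criterion on the mean did not decide any membership, since the lowest mean over the Mybx1 libraries was 1.51 FPKM. Just inside the criterion on the rise was cers6, a ceramide synthase gene, at a difference of 2.01, and just outside it were CLEC3B at 1.999 and znf366 at 1.97. Just inside the criterion on the excess over WT was mmrn2b at 1.01, and just outside it were ASAP1 at 0.98 and e2f7, a transcription factor gene of the cell cycle, at 0.98.

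Of the 13 gene lists that were read, that of the p53 pathway and cell death gave the most members. Of 33 identifiers matched to a list of p53 targets and cell death genes 26 were counted, and 8 of these belonged to the 203: cdkn1a, mdm2, bbc3, phlda3, tp53inp1, foxo3b and 1 identifier each under the symbols GADD45A and GADD45B. Among all counted genes the share was 1.37%. In Mybx1 12 of the 26 rose and 2 fell from 0 to 6 hpf, whereas 7.67% of all counted genes rose and 7.1% fell. In WT 12 of the 26 rose as well and 6 fell, beside 15.7% and 42.2% of all counted genes. At 6 hpf 19 were higher and 2 lower in Mybx1 than in WT, beside 42.9% and 13.3% of all counted genes. With median-ratio scaling 13 were higher and 3 lower, beside 29.0% and 23.8% of all counted genes. In the egg 7 were higher and 0 lower in Mybx1 than in WT, where 9.37% of counted genes were higher and 5.31% lower. The list median of the change was 0.93 in Mybx1 and 0.76 in WT, against -0.08 and -0.68 over all counted genes. The list was written with earlier results of these data known, so its counts are no independent evidence of its direction.

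Growth arrest genes of the list included cdkn1a and GADD45A. The gene cdkn1a (ENSDARG00000076554), which encodes the cyclin-dependent kinase inhibitor p21, was at 167 FPKM at 6 hpf and 3.38 at 0 hpf in Mybx1, against 8.25 at 6 hpf and 1.84 at 0 hpf in WT. Its level in Mybx1 at 6 hpf was 20.2-fold that of WT (95% counting interval 15.1 to 27.6), while the eggs differed by 1.83-fold with an interval of 0.89 to 3.94 that includes 1. With median-ratio scaling the cdkn1a difference at 6 hpf was 3.47 on the log2 scale, against 4.18 on the FPKM scale. GADD45A (ENSDARG00000043581), a growth arrest and DNA damage gene whose symbol 2 identifiers share, was at 126 FPKM at 6 hpf and 0.44 at 0 hpf in Mybx1, against 6.14 and 0.21 in WT at the same stages. That is 20.5-fold above WT at 6 hpf (15.3 to 27.9). The tumour suppressor locus cdkn2a/b, named after its values were seen, was at 7.005 FPKM in Mybx1 at 6 hpf on 16 reads, against 0.424 FPKM on 1 read in WT.

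Mdm2, a ubiquitin ligase that acts as the feedback inhibitor of the pathway, was the member with the highest level in the WT egg. It was at 314 FPKM at 6 hpf and 58.1 at 0 hpf in Mybx1, against 43.2 at 6 hpf and 67.3 at 0 hpf in WT. The eggs were thus close, and the libraries parted by 6 hpf, when Mybx1 was 7.26-fold above WT (6.43 to 8.22). With median-ratio scaling the mdm2 difference at 6 hpf was 2.08 on the log2 scale, against 2.83 on the FPKM scale. The cyclin gene ccng1 of the same list is not among the 203 genes and was named after its values were seen. It was close between the genotypes at 6 hpf on the FPKM scale only, at 1207 FPKM in Mybx1 and 1194 in WT.

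Cell death effectors and regulators of survival followed. The gene bbc3 encodes Puma, a BH3-only protein that triggers the mitochondrial death pathway. It was at 33.0 FPKM at 6 hpf and 2.62 at 0 hpf in Mybx1, against 2.61 at 6 hpf and 0.49 at 0 hpf in WT, or 12.6-fold above WT at 6 hpf (9.75 to 16.7). The level of bbc3 in the Mybx1 egg already equalled that of WT at 6 hpf. The Akt inhibitor gene phlda3 was at 35.8 FPKM at 6 hpf and 2.21 at 0 hpf in Mybx1, against 3.66 and 0.089 in WT at the same stages, and tp53inp1, a p53-inducible nuclear protein gene, at 22.6 and 1.64 FPKM in Mybx1, against 5.45 and 1.33 in WT. The forkhead transcription factor gene foxo3b was at 38.9 FPKM at 6 hpf and 1.51 at 0 hpf in Mybx1, against 4.94 and 2.23 in WT. Of these, bbc3 and phlda3 were higher in Mybx1 than in WT already in the egg, and tp53inp1 and foxo3b were not.

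Other genes of the list stood above WT without meeting the criterion on the rise, among them genes named after their values were seen. The sestrin gene sesn1, which acts in oxidative stress defence, was at 64.5 FPKM at 6 hpf and 18.1 at 0 hpf in Mybx1, against 2.43 and 7.27 in WT at the same stages, 26.6-fold above WT at 6 hpf (19.5 to 37.3). Its rise in Mybx1 was 3.57-fold (3.16 to 4.04), and WT fell. The initiator caspase gene casp8 was at 40.0 FPKM at 6 hpf and 19.8 at 0 hpf in Mybx1, against 4.64 and 22.4 in WT. The list therefore held genes that rose in Mybx1 beside genes that fell in WT and differed by less than 1 on the log2(FPKM + 1) scale between the stages in Mybx1, such as casp8. In the opposite direction, sesn3 was at 24.4 FPKM in Mybx1 and 155 in WT at 6 hpf, and the other GADD45B identifier (ENSDARG00000027744) at 7.82 and 64.3 FPKM in the same order. The GADD45B identifier among the 203 genes (ENSDARG00000013576) was at 129 FPKM in Mybx1 and 56.8 in WT at 6 hpf, against 3.40 and 0.122 FPKM in the Mybx1 and WT eggs, and its difference at 6 hpf was 0.42 with median-ratio scaling, short of 2-fold. It rose 37.8-fold in Mybx1 and 467-fold in WT, the WT value resting on 1 read in the egg.

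**Figure D2:**
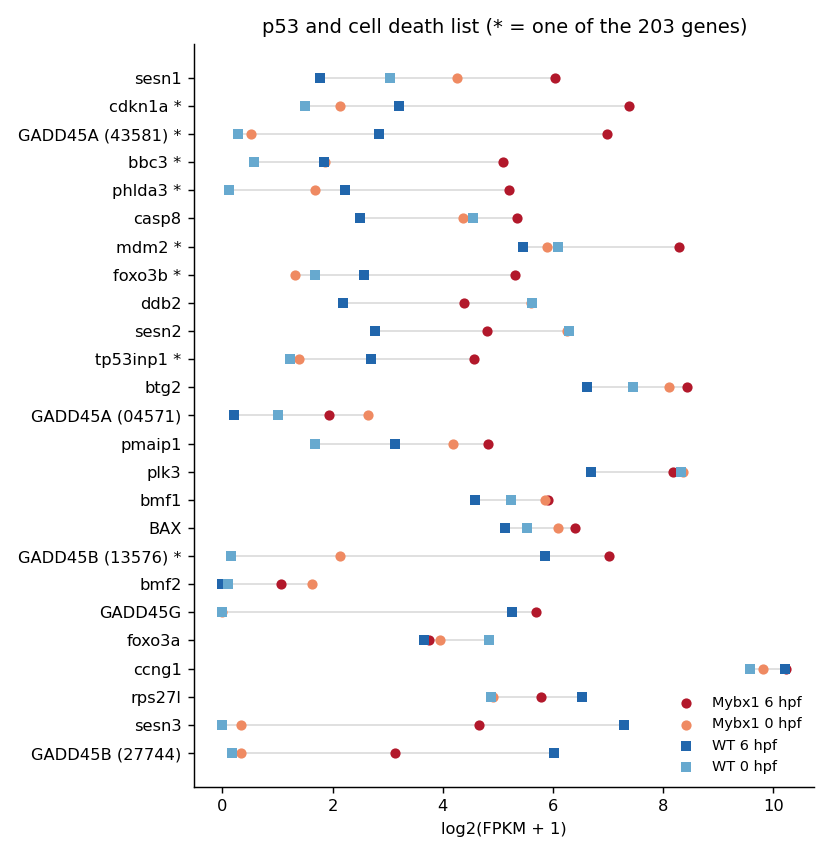
Level on the log2(FPKM + 1) scale (horizontal axis) of counted genes of the p53 and cell death list, sorted by the difference between Mybx1 and WT at 6 hpf, with circles for Mybx1 and squares for WT. An asterisk marks the 8 genes among the 203, for example cdkn1a at 167 FPKM in Mybx1 and 8.25 FPKM in WT at 6 hpf, and the last 5 digits of the identifier tell apart genes that share a symbol.

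Of 39 counted immediate early and growth response genes 2 belonged to the 203, the AP-1 genes FOS and jun, among 5 counted genes with fos or jun symbols. Of all counted genes 1.37% belonged to the 203. AP-1 is a dimer of Fos and Jun proteins that responds to growth factors and stress. FOS (ENSDARG00000031683) had 10.6 FPKM at 6 hpf and no read at 0 hpf in Mybx1, against 0.71 FPKM at 6 hpf and no read at 0 hpf in WT. The level of jun was 56.0 FPKM at 6 hpf and 0.72 at 0 hpf in Mybx1, against 10.05 FPKM at 6 hpf and no read at 0 hpf in WT, so that Mybx1 was 5.58-fold above WT at 6 hpf (4.22 to 7.47). In WT jun also rose. Of the 39 genes 10 rose and 5 fell in Mybx1, and 13 were higher and 12 lower than in WT at 6 hpf. Over all counted genes 7.67% rose and 7.1% fell in Mybx1, and 42.9% were higher and 13.3% lower than in WT at 6 hpf, so lower values were more frequent in the list. With median-ratio scaling 10 of 37 were higher and 13 lower, beside 29.0% and 23.8% of all counted genes. The epidermal growth factor receptor gene EGFR, named after its values were seen, was at 16.5 FPKM in Mybx1 and 4.99 in WT at 6 hpf.

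Of 26 counted genes of interferon and innate immunity, isg15, ifit8 and irf10 belonged to the 203, beside 1.37% of all counted genes. The gene isg15 encodes a ubiquitin-like protein that is conjugated to other proteins after interferon signalling, and it was also on the list of first-wave zygotic genes. It was at 172 FPKM in Mybx1 and 10.8 in WT at 6 hpf, with no read in either egg, a 15.9-fold difference (12.6 to 20.3). The interferon-induced gene ifit8 was at a lower level, at 6.90 FPKM in Mybx1 and 0.68 in WT at 6 hpf. The interferon regulatory factor gene irf10 was at 9.58 FPKM at 6 hpf and 0.76 at 0 hpf in Mybx1, against 1.14 at 6 hpf and 3.25 at 0 hpf in WT. The Mybx1 egg thus held less irf10 RNA than the WT egg, and the order was turned round at 6 hpf. Across the list 3 genes rose and 3 fell in Mybx1, and 11 were higher and 3 lower than in WT at 6 hpf. With median-ratio scaling 7 of 25 were higher and 5 lower, beside 29.0% and 23.8% of all counted genes. Over all counted genes 7.67% rose and 7.1% fell in Mybx1. On the FPKM scale 42.9% of all counted genes were higher and 13.3% lower than in WT at 6 hpf, so the list was close to other genes there. Outside the list stood ftr22, a finTRIM gene of a fish family of tripartite motif genes, at 134 FPKM at 6 hpf and 21.4 at 0 hpf in Mybx1, against 9.75 and 3.55 in WT, and mhc2daa, a class II antigen presentation gene, at 53.4 and 10.4 FPKM in Mybx1, against 4.54 and 2.91 in WT.

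First-wave zygotic genes were split. Of 23 counted, 22 rose in Mybx1 and 23 in WT, yet at 6 hpf only mxtx2, aplnrb, isg15 and the GADD45B identifier named above were higher in Mybx1, and 16 were lower, beside 42.9% and 13.3% of all counted genes. The gene mxtx2, a homeobox regulator of the yolk syncytial layer, was at 104 FPKM at 6 hpf and 0.10 at 0 hpf in Mybx1, against 7.25 FPKM at 6 hpf and no read at 0 hpf in WT, 14.3-fold above WT at 6 hpf (11.0 to 18.9). The apelin receptor gene aplnrb, which guides mesendodermal cells during gastrulation, was at 316 FPKM in Mybx1 and 61.2 in WT at 6 hpf, with no read in either egg, a 5.17-fold difference (4.79 to 5.58). Its paralog aplnra lay on the other side, at 2.33 FPKM in Mybx1 and 63.8 in WT at 6 hpf. The paralogs thus differed in direction. The gene irx7, a homeobox gene of the same wave that is not among the 203, was at 120 FPKM in both genotypes at 6 hpf. Both aplnra and irx7 were picked outside the rule for naming genes. Median-ratio scaling divides FPKM at 6 hpf by 1.15 in Mybx1 and 0.68 in WT, so irx7 is then lower in Mybx1. Of the summed yolk syncytial layer markers in Mybx1 at 6 hpf (123 FPKM), mxtx2 made up 104 FPKM, and 2 of the 6 markers were at 0 there, whereas no marker was at 0 in WT at 6 hpf.

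Since 1.37% of all counted genes belonged to the 203, lists of this size could be without a member and not stand apart from other genes. None of 17 counted Nodal and mesendoderm genes, 17 BMP, Wnt and dorsoventral genes, 11 FGF genes and 16 homeobox and neuroectoderm genes belonged to the 203. At 6 hpf 12 of the Nodal and mesendoderm genes, 14 of the BMP, Wnt and dorsoventral genes, 7 of the FGF genes and 6 of the homeobox genes were lower in Mybx1 than in WT, beside 13.3% of all counted genes. Of 12 counted genes of the yolk syncytial layer only mxtx2 belonged to the 203, and 8 were lower in Mybx1. Of 9 counted apelin, chemokine and receptor genes only aplnrb did, and 5 were lower. Over all counted genes 7.67% rose and 7.1% fell in Mybx1. In these lists 8 Nodal and mesendoderm genes, 9 BMP, Wnt and dorsoventral genes, 2 FGF genes, 6 homeobox genes, 7 yolk syncytial layer genes and 5 apelin and chemokine genes rose in Mybx1. No gene of the unfolded protein and amino acid response (24 counted) or of the circadian and nuclear receptor list (17 counted) was included, which is likewise near the share over all counted genes. In Mybx1 2 genes of the unfolded protein and amino acid response rose and 6 fell, and 0 circadian and nuclear receptor genes rose and 1 fell. At 6 hpf 12 of the former were higher and 6 lower than in WT, and 10 of the latter higher and 3 lower. Of all counted genes 42.9% were higher and 13.3% lower. With median-ratio scaling the list counts were 6 and 7 of 23, and 8 and 4 of 17, beside 29.0% and 23.8% of all counted genes. Of 14 heat shock genes 2 rose and 2 fell, and at 6 hpf 1 was higher and 7 lower than in WT (0 and 10 with median-ratio scaling). The 1 higher gene was HMOX1, which encodes a haem oxygenase and belonged to the 203. Its 6.44 FPKM in Mybx1 and 2.27 in WT at 6 hpf rest on 55 and 20 reads. With median-ratio scaling its difference at 6 hpf was 0.61 on the log2 scale, and with a pseudocount of 5 it was 0.65, both short of the criterion.

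In WT the same genes had a positive median change. Of the 203 genes 115 rose and 4 fell from 0 to 6 hpf in WT, beside 15.7% and 42.2% of all counted genes, and the median difference was 1.202, against -0.68 over all counted genes. The criteria bound the WT level at 6 hpf from above only, so a rise in WT was not required. A gene below 1 FPKM in the WT egg cannot fall by 1 on the log2(FPKM + 1) scale. That held for 158 of the 203 genes and for 2121 of the 14790 counted genes, so the small number that fell carries no weight. The same floor and the choice of genes that rose in Mybx1 also shape the 115 rises and the median. Their contrast with all counted genes is therefore a description and not a finding. The other 362 genes that rose by at least 2 in Mybx1 had a median WT difference of 4.20. The change from 0 to 6 hpf was at least 1 larger in Mybx1 than in WT for 160 of the 203 genes and for 38.7% of all counted genes, and was within 1 for the remaining 43. These counts follow in part from the criteria and carry no weight of their own: a gene at least 1 above WT at 6 hpf passes this mark unless the Mybx1 egg was above the WT egg. In WT at 6 hpf 63 of the 203 genes were below 1 FPKM and 22 had no read, beside 2773 and 479 of the 14790 counted genes.

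**Figure D3:**
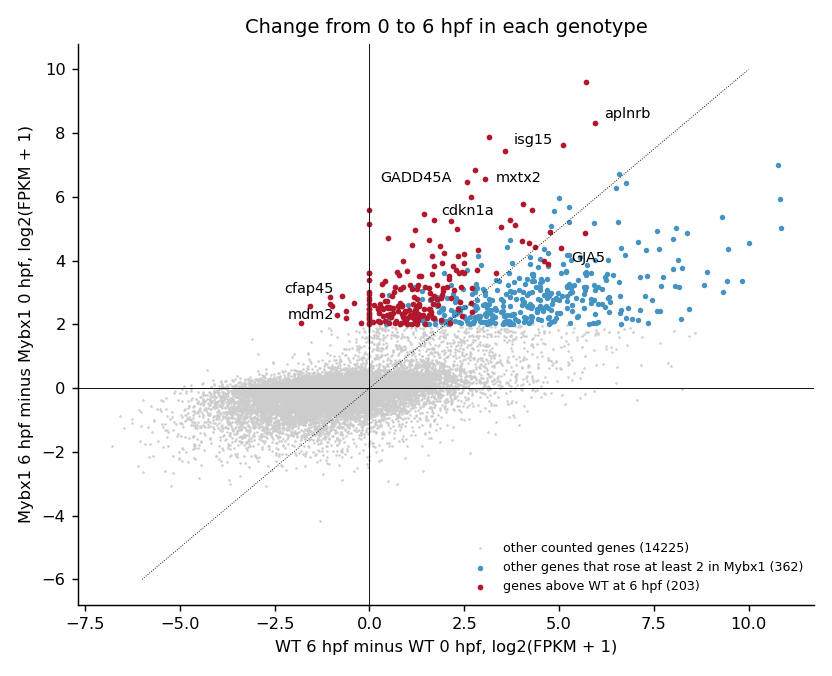
Difference between 6 and 0 hpf on the log2(FPKM + 1) scale in Mybx1 (vertical axis) and in WT (horizontal axis) for the 14790 counted genes, with the 203 genes in red, the other 362 genes that rose by at least 2 in Mybx1 in blue and a dotted line of equal change. Of the red points 160 lie at least 1 above the dotted line, and cfap45, which fell in WT, lies left of 0.

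The excess over WT was present in the egg for a sizeable share of these genes. The WT library at 0 hpf took no part in the criteria. At 0 hpf 47 of the 203 genes (23.2%) were higher and 5 were lower in Mybx1 than in WT, beside 9.37% and 5.31% of all counted genes and 6.35% and 8.56% of the other 362 genes that rose in Mybx1. All 47 lay among the 77 genes with at least 1 FPKM in the Mybx1 egg. The scale fixes this, because a gene below 1 FPKM there cannot be 1 above WT on it. Likewise a gene below 1 FPKM in the WT egg cannot be 1 lower in the Mybx1 egg. That held for 158 of the 203 genes and for 2121 of the 14790 counted genes, so the small number of lower genes carries no weight. The groups of genes compared here were not matched for their level in the egg. The median difference between the eggs was 0.25 over the 203 genes, 0.10 over all counted genes and 0.00 over the other 362 genes. This order of the medians depends on the scaling. With TPM, where 295 genes met the criteria, their median was 0.0056, below the 0.072 over all counted genes. With median-ratio scaling it was 0.27, against 0.017. Another 58 genes had no read in either egg.

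**Figure D4:**
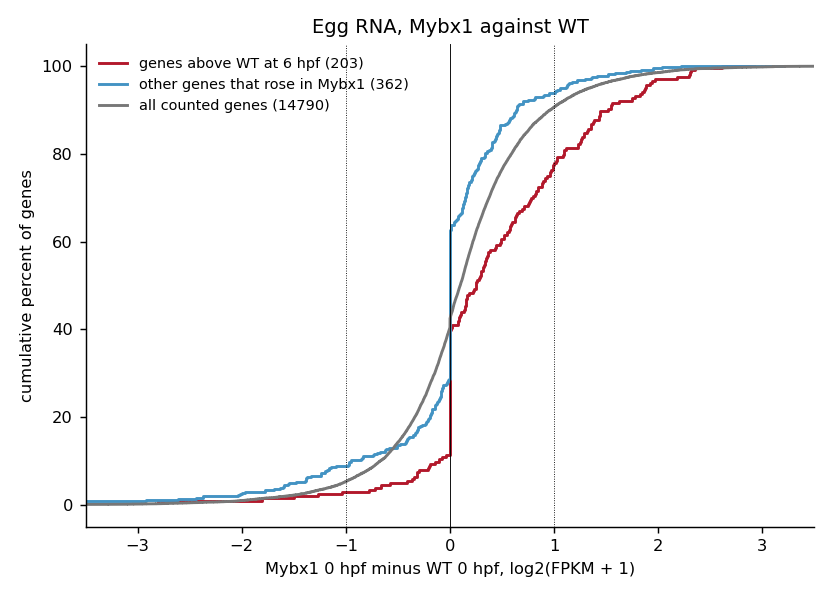
Cumulative percent of genes (vertical axis) by the difference between Mybx1 and WT at 0 hpf on the log2(FPKM + 1) scale (horizontal axis), for the 203 genes, the other 362 genes that rose in Mybx1 and all 14790 counted genes, with dotted lines at a difference of 1 either way. The red curve lies right of the others above 0, where 23.2% of the 203 genes pass a difference of 1, and the vertical step at 0 holds genes without a read in either egg.

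Several of the most abundant members had this excess at both stages and rose in both genotypes. The gap junction gene GJA5 (ENSDARG00000069450), a connexin whose symbol 2 identifiers share, was at 757 FPKM at 6 hpf and 34.8 at 0 hpf in Mybx1, against 258 at 6 hpf and 6.89 at 0 hpf in WT. It rose 21.8-fold in Mybx1 (20.2 to 23.5) and 37.5-fold in WT (31.8 to 44.6), and Mybx1 was 5.05-fold above WT in the egg (4.22 to 6.08) and 2.93-fold at 6 hpf (2.83 to 3.03). The lead of Mybx1 over WT in GJA5 was thus larger in the egg than at 6 hpf, and its rise was larger in WT. The gene tmem37, which encodes a membrane protein related to calcium channel subunits, was at 495 FPKM at 6 hpf and 22.1 at 0 hpf in Mybx1, against 141 and 5.87 in WT at the same stages. Its fold over WT was 3.76 in the egg (3.10 to 4.57) and 3.51 at 6 hpf (3.36 to 3.66), and its rise was 22.5-fold in Mybx1 and 24.0-fold in WT.

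The tetratricopeptide repeat gene ttc38 was at 313 FPKM at 6 hpf and 12.3 at 0 hpf in Mybx1, against 65.6 and 2.62 in WT at the same stages, a rise of 25.5-fold in Mybx1 and 25.1-fold in WT. The membrane-spanning gene ms4a17a.7 was at 185 and 10.8 FPKM in Mybx1, against 78.1 and 2.25 in WT, and the uncharacterised si:ch73-346m18.6 at 586 and 38.7 FPKM in Mybx1, against 202 and 6.79 in WT. In each of these genes the egg of Mybx1 was ahead of the egg of WT by at least as large a factor as the embryos at 6 hpf, except ttc38, where 4.70-fold in the egg and 4.78-fold at 6 hpf lay within each other's intervals. Of the 43 genes whose change differed by less than 1 between the genotypes, 31 had at least 1 FPKM in the Mybx1 egg. Under the criteria a gene can fall in this group only if its Mybx1 egg level was above that of the WT egg, so the group gives no support to the egg excess. With median-ratio scaling GJA5, ms4a17a.7 and si:ch73-346m18.6 were short of 2-fold above WT at 6 hpf, at 0.79, 0.48 and 0.78 on the log2 scale.

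Of the 4 genes that fell in WT, cfap45 was the one with a symbol, and the other 3 had at most 6 reads in any library. The gene cfap45, which encodes a protein of motile cilia, was at 6.91 FPKM at 6 hpf and 0.31 at 0 hpf in Mybx1, against 0.24 at 6 hpf and 2.71 at 0 hpf in WT. The WT egg therefore held more of it than the Mybx1 egg, and the order was turned round at 6 hpf. The lipid transfer gene sec14l8 (5.21 and 0.259 FPKM in Mybx1, against 0.202 and 1.16 FPKM in WT, at 6 and 0 hpf) and ankrd50l, an ankyrin repeat gene (29.3 and 3.11 FPKM in Mybx1, against 2.69 and 5.14 in WT), declined in WT by less than 1 on the log2(FPKM + 1) scale. The counts behind cfap45 were 55 and 3 reads in Mybx1, against 2 and 27 reads in WT, at 6 and 0 hpf in that order.

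Many of the 203 genes are known only by an identifier or a project symbol. Of the 203 genes 45 had no symbol and 61 carried only a clone or cDNA project symbol such as si: or zgc:. Of all 31870 gene identifiers, counted or not, 81.9% had a symbol, so the lack of one is not particular to these genes. Symbols with si: or zgc: stood at 59 of the 203 genes and at 1742 of the 14790 counted genes. On the log2(FPKM + 1) scale, the largest difference between Mybx1 and WT at 6 hpf among genes with a symbol was that of zgc:64022, at 152 FPKM at 6 hpf and 9.82 at 0 hpf in Mybx1, against 3.69 and 0.435 in WT at the same stages. Its excess was 41.3-fold at 6 hpf (29.5 to 59.5) and 22.6-fold in the egg (9.39 to 71.0). Next came si:ch211-239d6.2, at 86.4 and 0.98 FPKM in Mybx1, against 1.72 FPKM at 6 hpf and no read at 0 hpf in WT. A second gene of the same clone, si:ch211-239d6.4, had 11.3 FPKM in Mybx1 at 6 hpf and no read in any other library. Likewise si:dkey-159n16.4 (25.2 FPKM in Mybx1 and 0.41 in WT at 6 hpf) and si:dkey-159n16.3 (29.8 and 1.31 FPKM) came from 1 clone and had no read in either egg. These were the only clones with 2 or more members, and none of the 79 members found in the RefSeq gene table lay within 3 genes of another in the gene order of assembly GRCz12tu.

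The member with the highest level in Mybx1 at 6 hpf was an identifier without a symbol, ENSDARG00000088395, with 776 FPKM in Mybx1 and 51.4 in WT at 6 hpf and no read in either egg. The smallest length that fits its values is 81 bases, and the levels rest on 380 and 26 reads. Among longer models, ENSDARG00000100332 was at 307 FPKM at 6 hpf and 49.0 at 0 hpf in Mybx1, against 22.5 and 12.01 in WT, on 4768 reads in Mybx1 at 6 hpf. Other uncharacterised genes with high levels were si:dkeyp-104f11.4 (229 FPKM in Mybx1 and 33.4 in WT at 6 hpf) and si:ch211-117m22.2 (181 and 17.0 FPKM). The first had 1 read in the Mybx1 egg and none in the WT egg, and the second was present in both eggs.

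Some of the 203 genes may be short gene models. The smallest length that fits the values was under 200 bases for 40 of the 203 genes, 23 of them without a symbol. This length is a lower limit, and the real model can be longer. The share of such lengths over all counted genes is not given here. Under symbols of small RNAs stood 13 of the 203 genes, namely 7 of 5S ribosomal RNA, 3 of the spliceosomal U1 RNA, SCARNA14, mir107b and dre-mir-133c. Among all counted genes 31 stood under the 5S symbol, 15 under U1, 16 under microRNA symbols and 1 under a SCARNA symbol. SCARNA14, a guide RNA of the Cajal body, had 118 reads in Mybx1 and 31 in WT at 6 hpf, or 149 and 37.9 FPKM. The microRNA genes had 1 and 2 reads in Mybx1 at 6 hpf and no read elsewhere, and the 5S and U1 genes had between 3 and 13 reads there. Near-identical copies of 5S and U1 genes exist across the genome, so reads cannot be assigned to a copy with certainty. Only 2 of the 13 small RNA genes reached 10 reads in Mybx1 at 6 hpf, and for neither microRNA is a difference from WT detectable at this depth.

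Over all 203 genes the reads in Mybx1 at 6 hpf ran from 1 to 12814 with a median of 91, and 175 genes had at least 10. For 174 genes the 95% counting interval of the ratio of Mybx1 to WT at 6 hpf lay above 1, which describes counting error in these libraries only. The genes were chosen on this same contrast, so the count reflects their read depth and is no support for the excess. With the 175 genes of at least 10 reads, 1 gene fell in WT in place of 4, and 2 in place of 5 were lower in the Mybx1 egg. Among genes with reads in at least 2 libraries, the median length of the gene model was 1191 bases for 185 of the 203 genes and 1621 bases for 14742 counted genes, both as the smallest length that fits the values. For the other 362 genes that rose in Mybx1 it was 913 bases, so shorter models were not particular to the 203 genes.

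**Figure D5:**
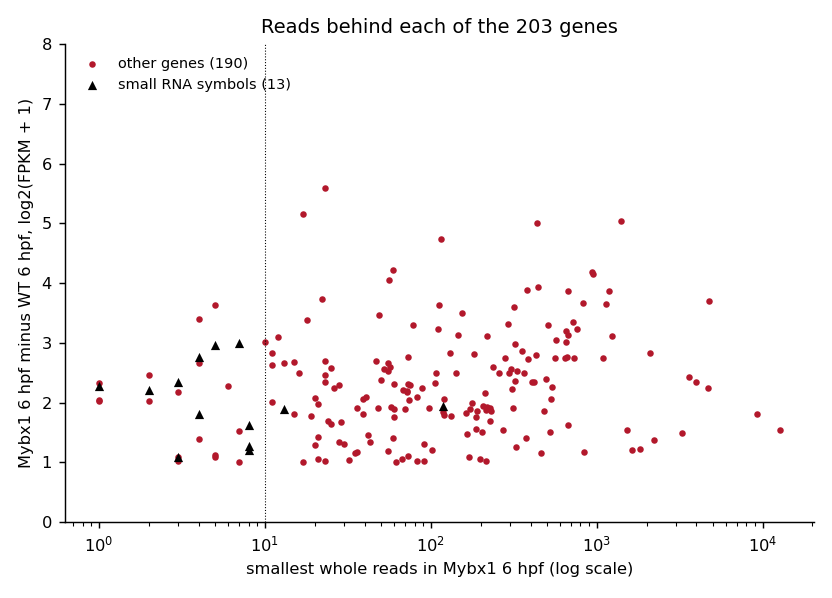
Difference between Mybx1 and WT at 6 hpf on the log2(FPKM + 1) scale (vertical axis) against the smallest whole number of reads in Mybx1 at 6 hpf (horizontal axis, log scale) for the 203 genes, with small RNA symbols as black triangles and a dotted line at 10 reads. Of the 203 points 28 lie left of the line, among them 11 of the 13 triangles.

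Membrane, adhesion and metabolic genes were also among the 203, and apart from phlda2 the following were named after their values were seen. The protocadherin gene pcdh8, a cell adhesion gene of the paraxial mesoderm, was at 23.9 FPKM at 6 hpf and 0.92 at 0 hpf in Mybx1, against 4.23 and 0.071 in WT at the same stages. The gene inka1a, which encodes an inhibitor of p21-activated kinase, was at 59.9 FPKM in Mybx1 and 15.7 in WT at 6 hpf, on 1 read in the Mybx1 egg and none in the WT egg. The lysosomal beta-glucuronidase gene gusb was at 100.4 FPKM at 6 hpf and 3.13 at 0 hpf in Mybx1, against 34.99 and 1.23 in WT. All of these rose in WT as well and ended higher in Mybx1. Of 7 counted genes of the lyrm family of small mitochondrial proteins, 2 were members, lyrm1 and lyrm2. The gene lyrm2 was at 113 and 22.2 FPKM in Mybx1, against 11.95 and 5.13 in WT, and lyrm1 at 45.6 and 6.36 FPKM in Mybx1, against 6.70 and 3.38 in WT. The vitamin D hydroxylase gene cyp24a1 was at 14.3 FPKM in Mybx1 and 4.40 in WT at 6 hpf, the catecholamine synthesis gene ddc at 29.1 and 3.31 FPKM, and the pleckstrin homology-like domain gene phlda2 at 14.0 and 0.52 FPKM, each with less than 3 FPKM in either egg. A second gene of motile cilia, dnai2b, which encodes a dynein intermediate chain, was at 17.5 FPKM at 6 hpf and 2.81 at 0 hpf in Mybx1, against 2.63 and 0.412 in WT. Unlike cfap45, dnai2b was more abundant in the Mybx1 egg than in the WT egg, by 6.82-fold (3.70 to 13.8).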

How the data were processed

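The authors deposited FPKM values for 31870 gene identifiers in 4 columns, 1 per library, with 0 columns of other samples. Per the submitters' processing notes the tools were HTSeq 0.6.1, TopHat2 2.0.12 and Bowtie2 2.2.3, and GRCz10 was the build; their roles are not stated. How FPKM was computed, the annotation release, the strand setting and the handling of multi-mapping reads are not given in the sources used here. Being relative to the library, FPKM cannot show a change in total RNA per embryo.

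From the deposited FPKM, differences were taken on the log2(FPKM + 1) scale, where the change of a low gene comes out too small. Low values were whole multiples of a common step, from which library totals (whole to within 0.0037 of a read) and the smallest whole reads of 25594 of 25595 genes were recovered. Those reads are lower limits. They gave ratios with exact (Clopper-Pearson, conditional binomial) 95% intervals, which cover counting error only. No p-value was computed. The recovery and the selection rule were tested on simulated data.

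Symbols came from a table of gene identifiers (81.9% matched), spelled as in RefSeq where listed. List symbols absent from the table were matched to a symbol in capitals without the final paralog letters.

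The genes and the 13 gene lists were chosen with earlier results of these data known. Named genes were the 20 with a symbol and the largest excess over WT, the 10 highest in Mybx1 at 6 hpf, the 5 highest in the WT egg, the 5 with the largest rise and the 5 with the largest decline in WT, every listed member and the 3 genes on either side of each threshold. Most others are marked in the text. Unmarked genes such as sesn3, SCARNA14, the microRNA genes and genes without a symbol also fell outside this rule. Promoter and microRNA sequences were not used here, and 1 gene of the lists is not reported here by name. Alternatives were other pseudocounts (0.1 and 5), other filters, TPM and median-ratio scaling, plus 2 restrictions on the members added after seeing the data. Python 3.11.15, pandas 2.3.3 and scipy 1.17.1 were used.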

Additional observations from a re-analysis of the deposited data

Results flagged for a closer look

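The gene cfap45 moved in opposite directions in the genotypes. It rose in Mybx1, whereas in WT the difference between 6 and 0 hpf was -1.58 on the log2(FPKM + 1) scale. With 1 library per group the difference between the genotypes was not tested.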

How the results depend on the processing

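The number of genes that met the criteria was 338 with a pseudocount of 0.1, 69 with 5 and 120 with a mean FPKM of at least 5, in place of 203. It was 295 with TPM, 143 with median-ratio scaling, 190 without small RNA symbols and 203 with no filter on low values.

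With a pseudocount of 0.1 the genes that rose in WT numbered 222, those that fell in WT 21, those higher in the Mybx1 egg 138, those lower there 32, and those below 1 FPKM in WT at 6 hpf 167. The median WT change was then 1.82 and the median Mybx1 change 4.30. With 5, the same counts were 31, 0, 12, 0 and 3. A mean of at least 5 gave 0 genes that fell in WT, 1 lower in the Mybx1 egg, 11 below 1 in WT and a median egg difference of 0.77. TPM gave 8 that fell, 71 higher and 8 lower in the egg, 114 below 1 and a median egg difference of 0.0056. Over all counted genes the median egg difference with TPM was 0.072. Median-ratio scaling gave 1 that fell, 31 higher and 2 lower in the egg and 40 below 1. The cause was not tested.

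Of 328 values of the 41 named genes under 4 alternatives, 311 stayed past their threshold and 17 did not, 12 of them with a pseudocount of 5 and 5 with median-ratio scaling. The 82 values with a pseudocount of 0.1 had to stay, because a smaller pseudocount enlarges the difference of a higher gene. All 82 values with TPM stayed too, where the median difference between Mybx1 and WT at 6 hpf over counted genes was 0.92, against 0.76 with FPKM. The count of 311 is therefore no measure of robustness. None changed sign, which a change of pseudocount alone cannot bring about. No paired analysis was possible because each group has 1 library.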
